A study of Drosophila melanogaster with 4 samples.

Results

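The genes described here belong to the insulin receptor pathway of Drosophila melanogaster and to the genes that its transcription factor FOXO activates. They were taken by symbol from a list of 9: InR, chico, Lnk, Akt, Pdk1, foxo, Thor, ImpL2 and Sdr. Of these, 7 were matched to a row that carries only that gene's symbol, out of 13402 genes tested. Thor and Lnk had none and were not analysed here, so the FOXO targets were InR and ImpL2, and the pathway components were chico, Akt, Pdk1, foxo and Sdr.

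Insulin-like peptides released into the hemolymph bind the receptor InR on fat body cells. The receptor acts through the adaptor Chico on phosphatidylinositol 3-kinase, and the kinases Pdk1 and Akt follow. Akt phosphorylates FOXO and keeps it out of the nucleus, so low insulin signalling releases FOXO to its target genes. InR, Thor and ImpL2 are among the targets described in flies, and ImpL2 and Sdr are secreted proteins that bind insulin-like peptides and limit their action. Much of this pathway is set by phosphorylation, which an expression array does not measure.

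Fat bodies, the organ of larval fat and glycogen storage, came from w1118 larvae, a white-eyed laboratory strain, aged 5 days. Control larvae ate a semi-purified diet alone from the egg onwards. The other larvae ate the same diet supplemented with PFJ, short for palm fruit juice, which contains phenolic compounds. The stated amount was 4 ml. Its phenolic content, expressed as gallic acid, was stated as 19000 mg per kg and as 0.86 mg per kcal of diet. Whether these figures match each other was not checked. There were 2 arrays per diet, each of RNA from a pool of 10 larvae, so differences between single larvae cannot be seen. Values are log2 intensities after RMA, which corrects background, equalises the arrays and summarises probes, and a level is compared here only between arrays for the same gene. Pairs of values below give replicate 1 first and replicate 2 second. With so few arrays their number limits the precision.

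No gene of the 7 passed the test, and none of the 13402 did: limma's moderated test with Benjamini-Hochberg adjustment called 0 genes (0% of genes tested) at an adjusted p of 0.05. At an unadjusted p under 0.05 it reached 373 genes, or 2.78%, and 0 of the 7 were among them. An exact two-sided permutation test of 2 arrays against 2 cannot go below 0.333. The values below are therefore a description. In them PFJ replicate 1 held the lowest value of 4 of the 7. It held the lowest value of 24.8% of all genes and of 46.0% of the brightest quartile, to which 6 of the 7 belong.

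**Figure D1:**
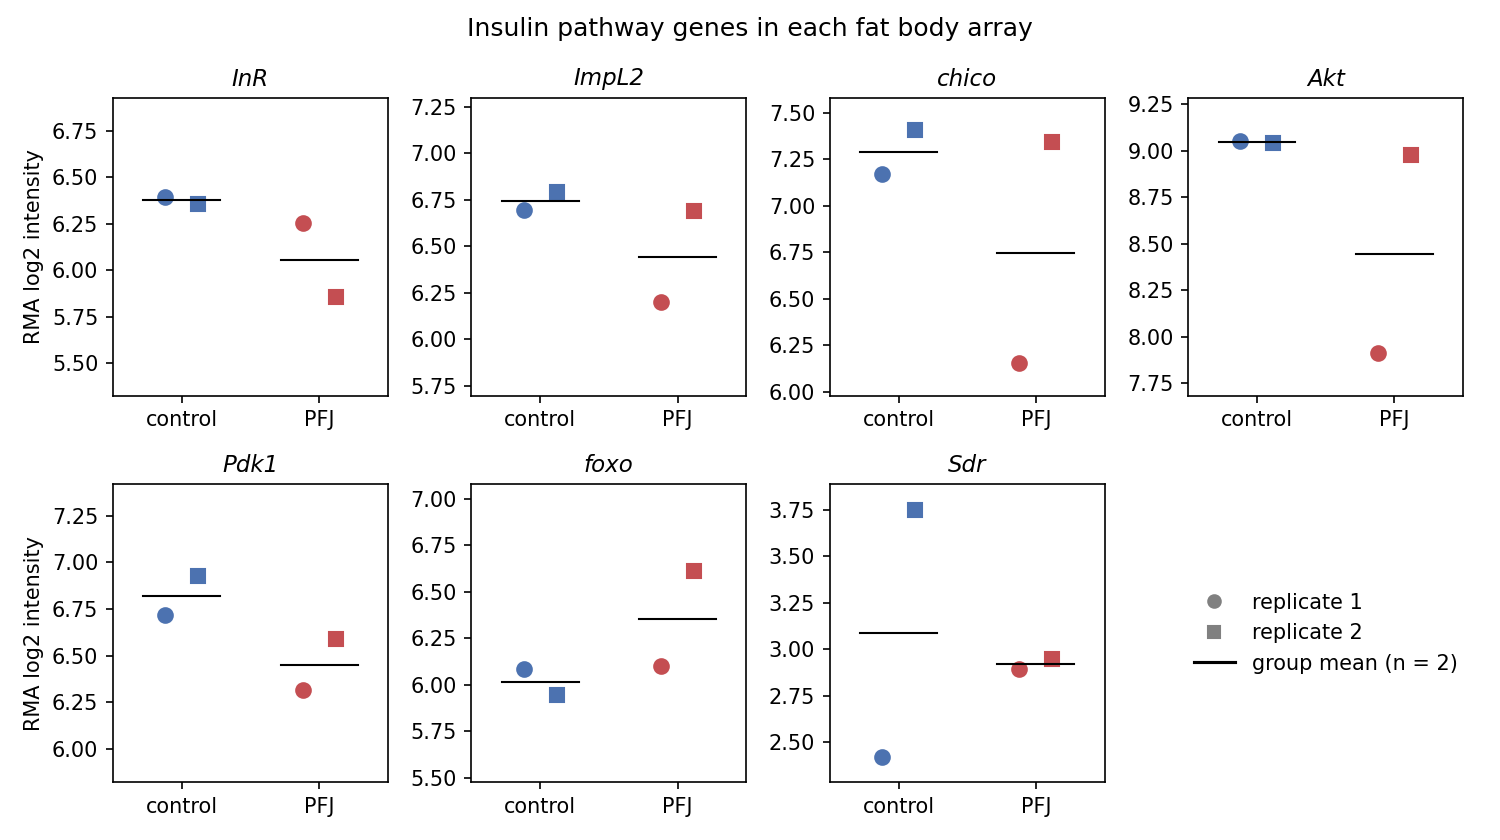
RMA log2 intensity of each of the 7 genes in the control and PFJ arrays, with replicate 1 as circles, replicate 2 as squares and bars at the group means. Every panel spans the same log2 range, and chico and Akt show PFJ replicate 1 over 1 log2 unit below PFJ replicate 2.

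Among the proteins that bind insulin-like peptides, ImpL2 was measured at 6.69 and 6.79 in the control arrays and at 6.20 and 6.69 in the PFJ arrays. ImpL2 encodes a secreted immunoglobulin-domain protein related to vertebrate insulin-like growth factor binding proteins. PFJ replicate 1 was the low array, and PFJ replicate 2 was all but level with the lower control, at a difference of -0.0038. The difference, PFJ minus control, was -0.30 on the log2 scale (SE 0.24, adjusted p = 1 by limma), a fold of 0.813 with a 95% interval from 0.517 to 1.28. Without PFJ replicate 1 it was -0.05, and without PFJ replicate 2 it was -0.54.

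Sdr encodes a secreted decoy of the insulin receptor, built like the receptor's extracellular part. Its level was 2.42 and 3.75 in the control arrays, and 2.89 and 2.95 in the PFJ arrays. Both PFJ arrays fell between the control arrays, so the groups overlapped. The gap of 1.33 between the control arrays was larger than the same gap in 93.5% of all genes. The difference of -0.16 (SE 0.49) had a 95% interval from -1.54 to 1.21, and it became 0.50 without control replicate 2 and -0.83 without control replicate 1. Sdr was the only member of the 7 whose mean over the arrays lay below the median of all genes, while all 7 lay above the lower quartile.

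The receptor gene InR read 6.39 and 6.36 on the control diet and 6.25 and 5.86 on PFJ. Here PFJ replicate 2 was the low array, the reverse of ImpL2. Both PFJ arrays lay below both controls, by 0.11 for the closest pair of arrays and by 0.54 for the farthest. The mean difference was -0.32 (SE 0.21, adjusted p = 1 by limma), a fold of 0.800 with a 95% interval from 0.535 to 1.20. Repeating the quantile normalisation over the 13402 genes raised PFJ replicate 1 to 6.41, above both controls at 6.36 and 6.29, and the difference was then -0.20 with overlapping groups.

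Chico, the fly insulin receptor substrate, links the receptor to phosphatidylinositol 3-kinase. The gene chico read 7.17 and 7.41 on the control diet and 6.15 and 7.34 on PFJ. PFJ replicate 2 lay between the controls, and PFJ replicate 1 lay 1.02 below the lower of them. The gap of 1.19 between the PFJ arrays exceeded that of 96.4% of all genes. The mean difference of -0.54 (SE 0.46, 95% interval from -1.81 to 0.73) rested on that array: it was 0.06 without PFJ replicate 1 and -1.14 without PFJ replicate 2.

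Akt encodes the kinase that phosphorylates FOXO and, through the TOR pathway, promotes growth. It was measured at 9.05 and 9.04 in the control arrays and at 7.91 and 8.98 in the PFJ arrays. The control arrays were 0.01 apart, and only 2.06% of all genes had a smaller gap, while the PFJ arrays were 1.06 apart, farther than in 95.2% of genes. Both PFJ arrays lay below both controls, but PFJ replicate 2 did so by only 0.07. The mean difference was -0.60 (SE 0.41), a fold of 0.659 with a 95% interval from 0.302 to 1.44, and without PFJ replicate 1 it was -0.07.

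Pdk1 encodes the kinase that phosphorylates Akt in its activation loop. The values were 6.72 and 6.93 for control and 6.31 and 6.59 for PFJ. Both PFJ arrays lay below both controls, by at least 0.13, and PFJ replicate 1 was again the lowest. Pdk1 was the member whose difference, -0.37 (SE 0.20), exceeded both within-group gaps, which were 0.21 for control and 0.27 for PFJ. It also had the smallest p of the 7 (0.135 unadjusted and 1 adjusted, limma). Leaving out each array in turn gave values from -0.51 to -0.23.

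The difference of foxo had the opposite sign. FOXO is the forkhead transcription factor at the end of this branch. The level of foxo was 6.08 and 5.94 on the control diet and 6.10 and 6.61 on PFJ. PFJ replicate 1 lay 0.01 above the higher control, and PFJ replicate 2 lay 0.53 above it. The difference was 0.34 (SE 0.24, adjusted p = 1 by limma), a fold of 1.27 with a 95% interval from 0.791 to 2.03. It was 0.08 without PFJ replicate 2 and 0.60 without PFJ replicate 1.

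**Figure D2:**
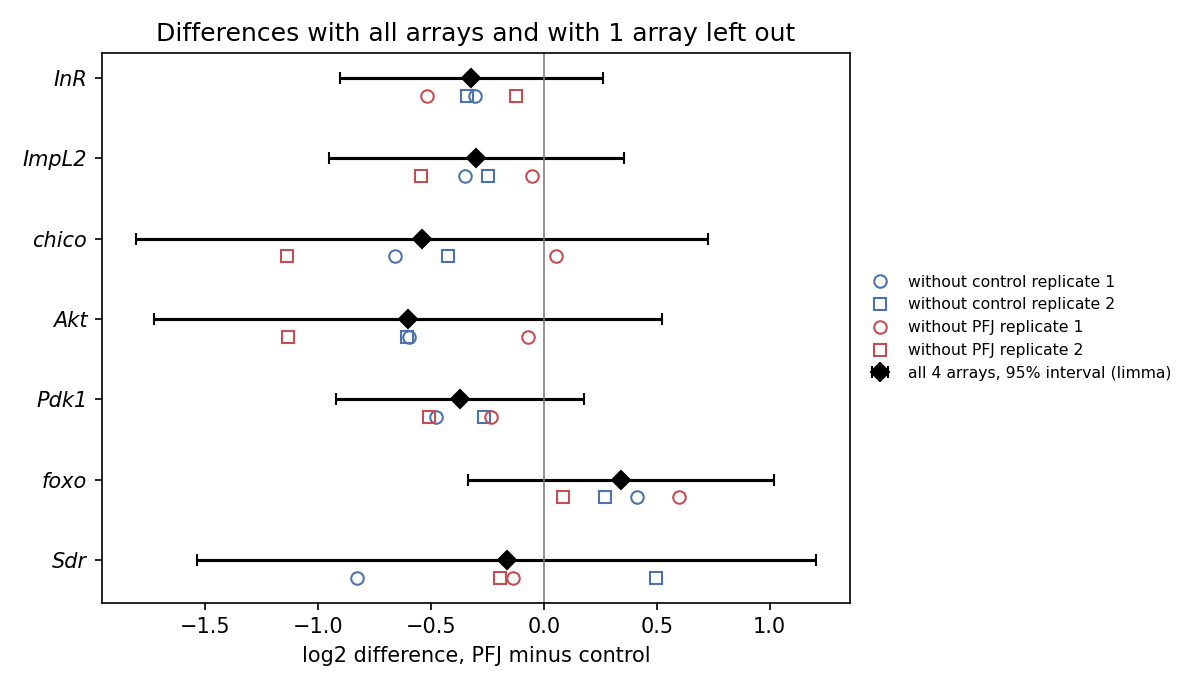
Log2 difference, PFJ minus control, for each of the 7 genes with all 4 arrays (diamonds, bars are limma's 95% intervals) and with each array left out in turn (open symbols). All 7 intervals include 0, and the open symbols of chico and Sdr lie on both sides of 0.

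Of the 7 genes, 4 (InR, ImpL2, Akt and Pdk1) had both PFJ arrays below both control arrays, where this held for 13.1% of all genes. Only foxo had both above, where this held for 15.5% of all genes. Since 6 of the 7 were above the median of all genes in mean level, the brighter genes give a closer background: among the 6701 at or above that median, 17.6% had both PFJ arrays below and 10.1% had both above. Leaving out 1 array can only keep or raise such a count. Without PFJ replicate 1 the count stayed at 4 of 7, and the share of all genes rose to 28.7%. With the quantile normalisation repeated it was 3 (ImpL2, Akt and Pdk1), against 14.6% of all genes. These alternatives were chosen after seeing the data. The median difference of the 7 was -0.32, against 0.01 over all genes tested. It was -0.07 over genes at or above the median level. Over the brightest quartile of genes, to which 6 of the 7 belong, it was -0.12. The genes were listed with earlier results of these data known, so these counts carry no test.

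The comparison of FOXO targets with pathway components gave overlapping groups. Each gene was first centred on its own mean over the 4 arrays. The mean of InR and ImpL2 was then 0.14 and 0.17 for control and -0.18 and -0.13 for PFJ, so both PFJ arrays were lower. The mean of the 5 components was -0.03 and 0.30 in the controls and -0.44 and 0.18 in the PFJ arrays, so the groups overlapped. Targets minus components came to 0.17 and -0.12 for control and to 0.26 and -0.31 for PFJ. In both diets replicate 1 was positive and replicate 2 negative.

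Between the groups, the FOXO targets differed by -0.31 and the components by -0.27. The target-minus-component value had a control mean of 0.02 ± 0.21 and a PFJ mean of -0.02 ± 0.40 (SD, n = 2 each), a difference of -0.04 that is smaller than either SD. It was 0.24 without PFJ replicate 2 and -0.33 without PFJ replicate 1, so its sign depended on which PFJ pool was kept. It was 0.10 without control replicate 1 and -0.19 without control replicate 2. Leaving Sdr out of the components gave -0.02. Without Thor, the translational repressor that binds eIF4E, the target side rests on 2 genes.

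**Figure D3:**
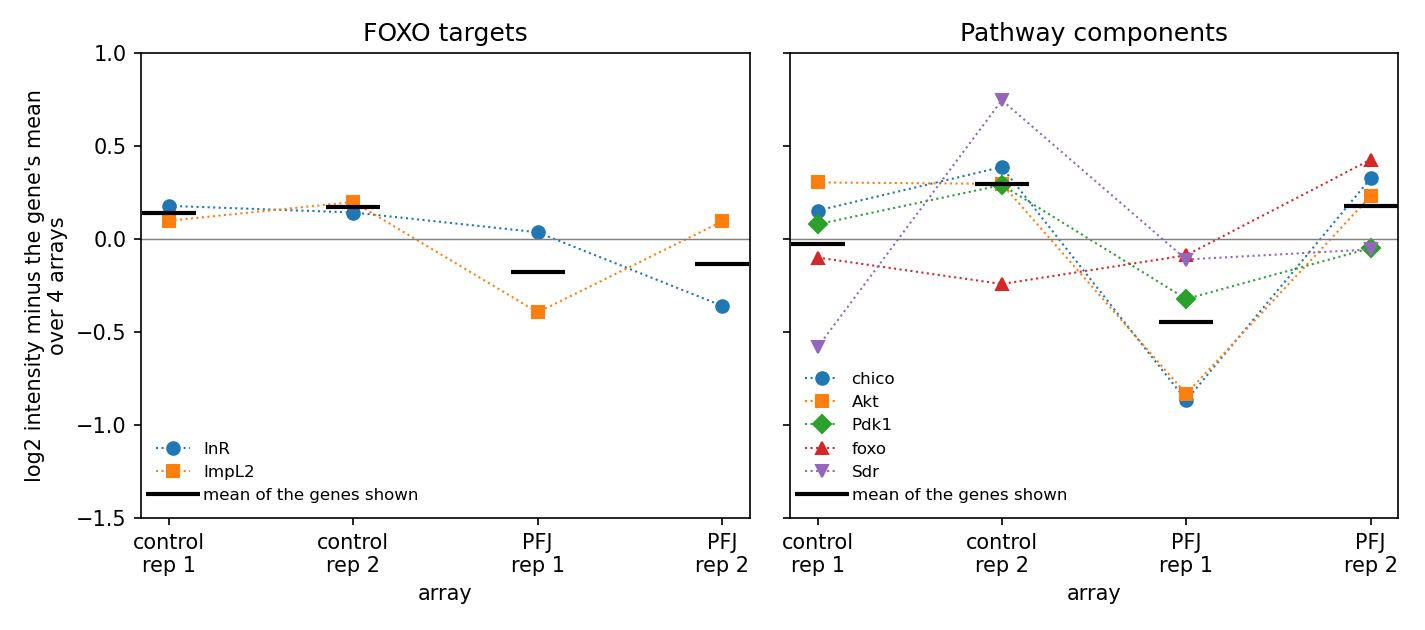
Log2 intensity of each gene minus its own mean over the 4 arrays, for the FOXO targets (left) and the pathway components (right), with black bars at the mean of the genes shown. Chico and Akt dip together to -0.87 and -0.83 in PFJ replicate 1, and foxo peaks at 0.43 in PFJ replicate 2.

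The members' profiles fell into unlike shapes. Likeness was measured as the root mean square difference between centred profiles over the 4 arrays, in log2 units. The closest pairs were ImpL2 with Pdk1 at 0.09 and chico with Akt at 0.10, and the farthest was Akt with Sdr at 0.63. The FOXO targets InR and ImpL2 were 0.32 apart, farther than ImpL2 was from Pdk1, Akt or chico.

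Among the 6700 other genes at or above the median level, those with profiles closest to InR were ctrip at 0.01, Cap-G at 0.02 and ReepA at 0.03, and 98 genes lay within 0.1 of it. ImpL2 had fmt, Cyp1 and Lrch closest, each at 0.01, with 253 genes within 0.1. Such near matches are common with 4 arrays, and no shared function or control is implied.

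PFJ replicate 1 held the lowest value for ImpL2, chico, Akt and Pdk1, and each was at least 0.2 below every other array. Over all genes, 24.8% had their lowest value in that array and 12.3% lay at least 0.2 below every other. Control replicate 2 stood apart in more genes: it was lowest in 29.0% and at least 0.2 below every other array in 13.8%, and on the first principal component (63.8% of the variance) it lay at 55.6, with the other arrays from -34.6 to 4.56. Among the members, control replicate 2 was lowest only in foxo. It held the highest value of 4 members (ImpL2, chico, Pdk1 and Sdr), where 30.4% of all genes had theirs. There 2 members lay at least 0.2 above every other array, as did 14.7% of all genes. For PFJ replicate 1 the share differed with brightness: among the brightest quartile of genes, to which 6 of the 7 belong, it was lowest in 46.0% (control replicate 2 in 17.1%) and at least 0.2 below every other array in 29.0%. The median of that quartile in PFJ replicate 1 was -0.17 relative to the mean of the other arrays. Chico and Akt, at least 0.5 below every other array, were among 620 such genes in that array (4.63% of all), while control replicate 2 had 865 (6.45%) and no member.

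Repeating the quantile normalisation lowered the share of the brightest quartile lowest in PFJ replicate 1 to 30.2%. PFJ replicate 1 still held the lowest value of the same 4 genes. Akt then read 9.04 and 9.03 for control and 8.11 and 8.92 for PFJ. For chico the values were 7.14 and 7.34 for control and 6.30 and 7.28 for PFJ. The differences were -0.52 for Akt, -0.45 for chico, -0.26 for Pdk1, -0.19 for ImpL2 and 0.43 for foxo, with an adjusted p of 1.00 for each. What sets PFJ replicate 1 apart was not tested.

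**Figure D4:**
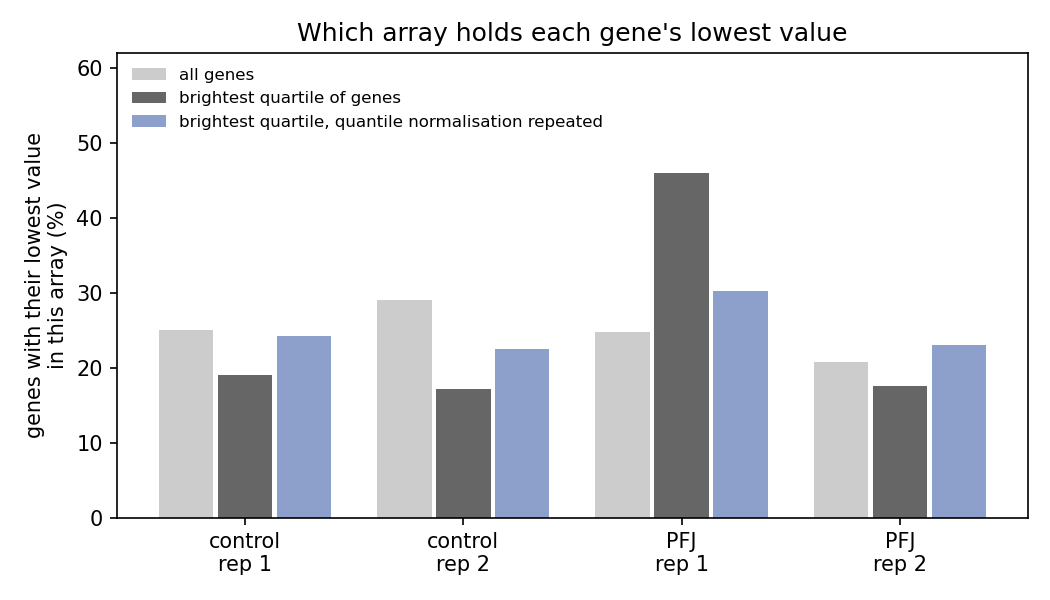
Percentage of genes whose lowest value lay in each array, for all genes, for the brightest quartile by mean level, and for that quartile after repeating the quantile normalisation. PFJ replicate 1 held the lowest value for 46.0% of the brightest quartile and for 30.2% after the repeated normalisation.

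The wider pathway was described through 5 lists, which held 35 measured genes beyond the members. Of these, 5 had both PFJ arrays below both controls, where 13.1% of all genes and 17.6% of those at or above the median level did. Only 1 had both above, where 15.5% of all genes and 10.1% of those at or above the median level did, and 29 overlapped. The count below is near the share over all genes. None had an unadjusted p under 0.05. Their median difference was -0.07, against 0.01 over all genes and -0.07 over those at or above the median level. PFJ replicate 1 held the lowest value of 14 of the 35, where 24.8% of all genes and 37.0% of those at or above the median level had theirs.

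The module from the receptor to Akt had 10 measured genes of 17 listed, with a median of -0.35. Without the members InR, chico, Pdk1 and Akt the other 6 had a median of -0.10. Of the 10, 5 had both PFJ arrays below both controls, against 13.1% of all genes and 17.6% of those at or above the median level. Beyond the 4 members it holds (3 of them below), these were the 14-3-3 genes, whose proteins bind phosphorylated FOXO. The level of 14-3-3zeta was 9.95 and 10.09 for control and 9.15 and 9.73 for PFJ, a difference of -0.58 (SE 0.26, adjusted p = 1 by limma). Its partner 14-3-3epsilon, named after its values were seen, read 11.58 and 11.51 against 10.95 and 11.37. Both were lowest in PFJ replicate 1, as chico and Akt were. Without PFJ replicate 1 the median of the module was -0.12, and without PFJ replicate 2 it was -0.40.

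Insulin-like peptides and their binding proteins had 7 measured genes of 11 listed and a median of -0.11. Without the members ImpL2 and Sdr the other 5 had a median of 0.10, on the opposite side of 0. Ilp2 and Ilp5, peptides known from brain insulin-producing cells, differed by -0.24 (SE 0.21) and 0.21 (SE 0.18), and Ilp8, a peptide released by damaged imaginal discs, by 0.15 (SE 0.21). The 4 measured peptide genes (Ilp7 is the fourth) ran from 2.48 to 3.45 over all arrays, all under the median filter on dim genes, which stood at 4.00. Ilp6, the peptide gene known from fat body, was not analysed here. The median of this list was -0.35 without control replicate 1 and 0.17 without control replicate 2.

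The Ras-MAPK arm, a second route from the receptor, had 6 measured genes of 9 and a median of -0.06. Its phosphatase gene csw differed by -0.21 (SE 0.21) with both PFJ arrays below both controls, the MAP kinase kinase gene Dsor1 by -0.29 (SE 0.33), the exchange factor gene Sos by 0.20 (SE 0.26) and the adaptor gene drk by 0.16 (SE 0.25). The TOR arm had 11 measured genes of 15, a median of -0.12, and overlapping groups in all 11. The gene scyl, whose product restrains TOR, differed by -0.41 (SE 0.38), rictor by -0.29 (SE 0.35), S6k by -0.17 (SE 0.29) and the translation scaffold gene eIF4G1 by -0.13 (SE 0.17). The cap-binding partner of Thor, eIF4E1, was added once its values were known: it read 7.63 in both controls and 7.40 and 7.75 with PFJ. The median of the Ras-MAPK arm was -0.11 without PFJ replicate 2, and 0.07 and -0.14 when control replicates 2 and 1 were left out. That of the TOR arm was 0.04 without PFJ replicate 1, -0.21 without PFJ replicate 2 and -0.03 without control replicate 2.

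Of 12 genes reported to respond to FOXO in flies, 9 were measured, with 7 differences below 0, 2 above and a median of -0.17. Over all genes 51.9% of the differences were above 0, while genes at or above the median level had a median difference of -0.07. Beyond InR and ImpL2 the median of the list was also -0.07, and all of these genes but Lip4 lay above the median level. Of these 7, 0 had both PFJ arrays above both controls, where 15.5% of all genes and 10.1% of those at or above the median level did. Both lay below in 1 of 7, near the share of 13.1% over all genes. That gene was Ac76E, which encodes an adenylyl cyclase, at 5.28 and 5.43 in controls and 5.13 and 4.79 with PFJ, a difference of -0.39 (SE 0.20, adjusted p = 1 by limma). Nmdmc, a mitochondrial folate enzyme gene, differed by 0.45 (SE 0.40) and read 6.99 in PFJ replicate 2 against 5.90 to 6.16 in the other arrays. The lipase gene bmm, the gluconeogenesis gene Pepck1 and the stress gene Sesn, named after their values were seen, differed by -0.34, -0.17 and -0.07, and the groups overlapped in all 3. The median of the list was -0.05 without PFJ replicate 1, and -0.02 and -0.27 when control replicates 2 and 1 were left out.

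**Figure D5:**
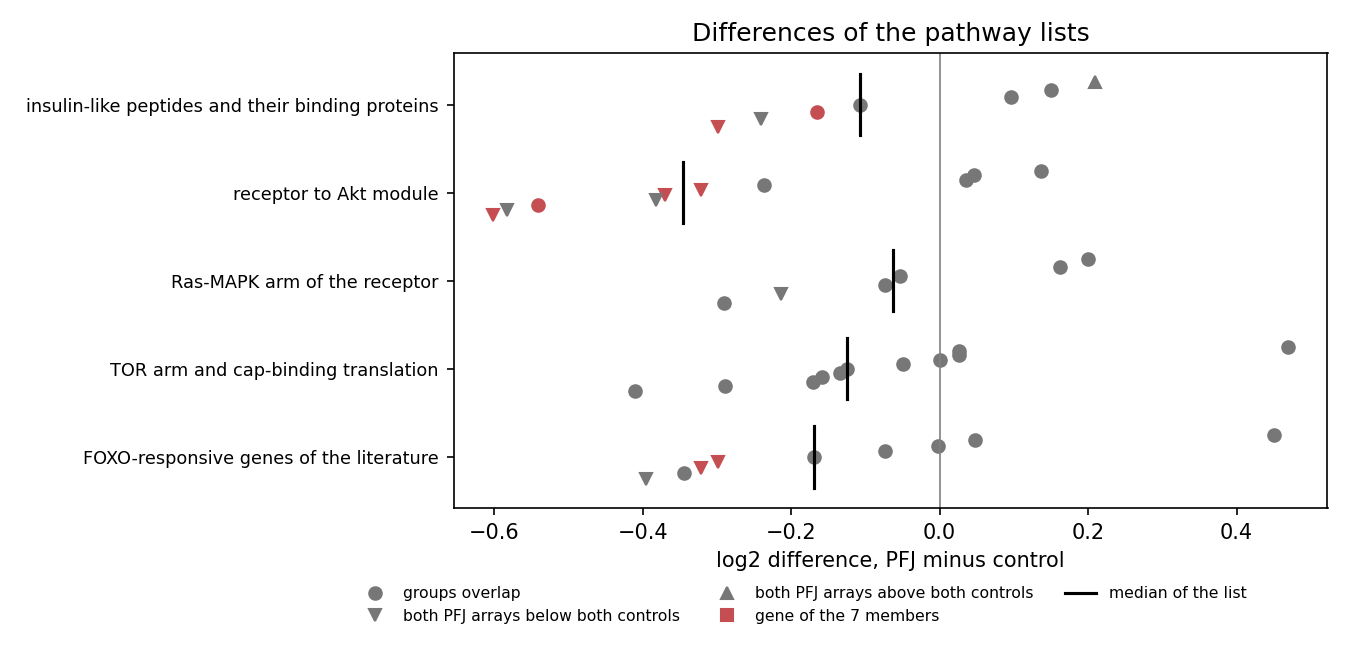
Log2 difference, PFJ minus control, of every measured gene in the 5 pathway lists, with the members in red, black bars at the list medians, and triangles where the groups do not overlap. The medians, members included, run from -0.35 for the receptor to Akt module to -0.06 for the Ras-MAPK arm. Over the genes beyond the members the module's median is -0.10 and that of the peptide list is 0.10.

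The tissue label was checked with marker genes. Of 13 fat body markers 9 were measured, and Lsp2, a larval serum protein gene, read 12.2 to 12.3 in all arrays. The summed linear intensity of the list was 12126 to 12566 in controls and 13178 to 15270 with PFJ, with 6 of the 9 genes higher in both PFJ arrays, against 15.5% of all genes. None of the 9 passed limma's adjusted test, and 2 had an unadjusted p under 0.05. Summed levels of 13 midgut markers were 3872 to 11311 in controls and 4980 to 7669 with PFJ, and those of 8 salivary gland markers 8697 to 13478 and 10290 to 10722. The 11 testis markers summed to 71.6 in control replicate 2 and to between 342 and 972 in the other arrays. The 7 hemocyte markers summed to 163 to 238 in controls and 183 to 251 with PFJ. Of them, 4 were higher in both PFJ arrays, against 15.5% of all genes. By limma 3 of the 7 had an unadjusted p under 0.05, all higher with PFJ, and 0 passed adjustment. The sums weigh most on the brightest, crq, which differed by -0.67, and 3 of the 7 differences were below 0. Control and PFJ sums also overlapped for 7 muscle markers (1242 to 2630 and 1510 to 3224), 7 neuron markers (304 to 419 and 304 to 340) and 5 imaginal disc markers (123 to 133 and 122 to 137). Control replicate 2, apart on the first principal component, held the highest midgut, salivary gland and neuron sums. Its fat body, muscle and testis sums were the lowest. The part of these tissues in the pathway values was not tested. In pooled tissue, fewer cells of a type cannot be told apart from less RNA per cell.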

How the data were processed

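Each of the 4 samples was hybridised to 1 single-colour Affymetrix array. The deposited log2 intensities, 1 per transcript cluster, came from the authors' RMA run in Affymetrix Expression Console 1.4.0.38, per the submitters' processing notes. No source states the log2 scale, which was inferred from the range of 1.36 to 12.7. Genome build and annotation are not given in the sources used here, and probe-level values were not analysed here.

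Of 16322 rows, 13441 carried 1 symbol in the platform annotation, 555 several and 2326 none. Where a gene had more than 1 row (37 genes) the brightest on average was used, leaving 13402 genes. PFJ was compared with control in R 4.3.3 with limma 3.58.1 (lmFit and eBayes, no covariate), adjusted over all genes; SEs are moderated, with 4.01 degrees of freedom. The procedure was tested on simulated data.

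Members and lists were chosen with earlier results of these data known. The text names the members, the 3 nearest profiles and the brightest markers. In each list it names genes whose groups did not overlap and whose mean difference was at least 0.5 in either direction. For a list without such genes it names the 4 with the smallest p-values. Alternatives changed the normalisation, the filter, the arrays used, the rows, the prior and the replicate block. No sequences are shown.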

Additional observations from a re-analysis of the deposited data

How the results depend on the processing

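No gene passed an adjusted p of 0.05 in limma under any of the 11 alternatives run on the whole table, and 0 of the 7 members did. The count at an unadjusted p under 0.05, 373 as reported, ranged from 304 to 945 with 1 array left out (945 without control replicate 1 and 566 without PFJ replicate 2) and was 192 with only genes above the median level, where fewer genes were tested. InR, ImpL2, Akt, Pdk1 and foxo kept their direction in all 12 alternatives, but most of these could not have reversed it. Filters, rows, prior and replicate block left each estimate unchanged. Groups that do not overlap keep their sign when 1 array is left out. Only the repeated quantile normalisation and median centring could have changed it, and under them InR was -0.20 and -0.37, and foxo 0.43 and 0.29. With 1 array left out, the difference of chico ran from -1.14 to 0.055 (without PFJ replicate 1) and that of Sdr from -0.83 to 0.50 (without control replicate 2). The count of members with PFJ arrays below controls was 4 to 6 with 1 array left out, chosen after seeing the data. Leaving out an array cannot lower such a count, and the share of all genes rose from 13.1% to between 28.7% and 34.9%. FOXO targets minus components, -0.04 as reported, ran from -0.33 to 0.24 with 1 array left out and was 0.02 with quantile normalisation repeated. The TOR arm's median was -0.01 with that normalisation. Labels give both groups replicates 1 and 2, but nothing ties same-numbered pools together. Their deviations from the group means correlated at 0.34 over genes. With 2 arrays per group, crossing the numbers must give the same value with the opposite sign, -0.34. The correlation therefore does not show that same-numbered pools belong together. With the replicate block 547 genes had an unadjusted p under 0.05 by limma and 0 passed adjustment. In this balanced layout the block cannot change a difference, only its SE, which for chico went from 0.46 to 0.32. Without probe-level data, signal over background could not be judged, which limits Sdr and the Ilp genes most.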
